A study of Schizosaccharomyces pombe with 12 samples.

Results

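The genes described here encode RNA polymerases I, II and III, the Mediator complex and the general transcription factors of *Schizosaccharomyces pombe*. They were chosen by name: a probe set was included where the platform's gene symbol was *nuc1* or began with *rpa*, *rpb*, *rpc*, *med*, *taf*, *tfa*, *tfb*, *tfg*, *sfc* or *srb* followed only by digits. This rule matched 72 of 4880 probe sets, for 72 different genes. The symbols were checked against a current gene table, and 3 had changed. The probe set that the platform calls *taf1* now belongs to *atg11*, an autophagy gene, so 71 of the matched genes encode transcription machinery. The platform's *taf111* is the present *taf1*, the largest subunit of TFIID, and its *taf73* is the present *taf51*, a paralogue of *taf5*. Present symbols are used below. In the counts over all 72 probe sets *atg11* is included, and it passed the test with a fold limit in no comparison.

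RNA polymerase I transcribes the large ribosomal RNA precursor, polymerase II the messenger RNAs, and polymerase III the transfer RNAs and the 5S ribosomal RNA. The enzymes have related cores and share a set of small subunits, while Mediator carries signals from gene-specific activators to polymerase II. In budding yeast, genes for polymerases I and III belong with those of ribosome assembly to a set that is transcribed in step with growth.

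RNA was taken from wild type (*ura4-D18 leu1-32 ade6-216*) and from *set3Δ* cells (*set3::KanMX* with the same 3 auxotrophic markers, which both strains therefore carry), grown in liquid YES medium and treated for 3 hours with latrunculin A (LatA) or with its solvent DMSO. LatA binds actin monomers and blocks the assembly of actin filaments, and Set3p is a SET domain protein of a histone deacetylase complex. The labels give the LatA dose as 0.5 mM and the study's methods as 0.5 µM. Each of the 4 groups had 3 arrays, called biological replicates in the labels, so p-values measure the spread between these arrays. The *set3Δ* strain was a purchased deletion, and the sources do not say how many isolates of it were used. Of the strains that the study lists with these genotypes, the wild type is *h-* and the *set3Δ* strain *h+*; the sources do not say which strains were hybridized, so mating type may differ along with *set3*.

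Each deposited value is a log2 intensity minus the median of its probe set over the 12 arrays. It places a transcript relative to its own median only, and levels of different genes cannot be compared. The median SD between the 3 arrays of a group was between 0.0712 and 0.122 for the matched genes and between 0.0708 and 0.114 for all probe sets (log2 units). The *set3* probe set was at least 1.97 in every wild-type array and at most -1.97 in every *set3Δ* array. The DMSO arrays were not alike in stress genes. A score of the core environmental stress response, taken from the study's gene lists as the mean of the induced genes minus the mean of the repressed genes, was -0.74, -1.37 and -1.52 in wild type with DMSO and 0.24, 0.26 and 0.45 with LatA. In *set3Δ* it was 0.01, -1.06 and -0.04 with DMSO and 0.61, 0.70 and 0.45 with LatA, so that *set3Δ* DMSO replicate 2 stood apart from the other two arrays of its group. Of the genes described here, *rpa49* and *rpc34* are in the repressed list of 104 genes (2.78% of the 72 and 1.92% of that list) and none is in the induced list of 136. The part of this score in the results below was not tested. In RNA from whole cultures, fewer cells of a type and less RNA per cell cannot be told apart.

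Transcripts of all 6 polymerase I subunits were lower with LatA in wild-type cells, as were those of 5 of 10 polymerase III subunits and 3 of 7 subunits shared between the enzymes, while no gene particular to polymerase II passed. A gene was counted as changed where limma's p, adjusted by Benjamini-Hochberg across the 4880 probe sets, was below 0.05 and the fold change exceeded 1.5. By this rule 15 of the 72 were lower with LatA, beside 7.3% of all probe sets, and 1 was higher, beside 7.21%. Without the fold limit 33 were lower (25.5% of all probe sets) and 5 higher (17.5%). In 43 of the 72 every LatA array lay below every DMSO array, which was the case for 35.3% of all probe sets. The median log2 difference was -0.24 over the 72 and -0.03 over all probe sets.

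**Figure D1:**
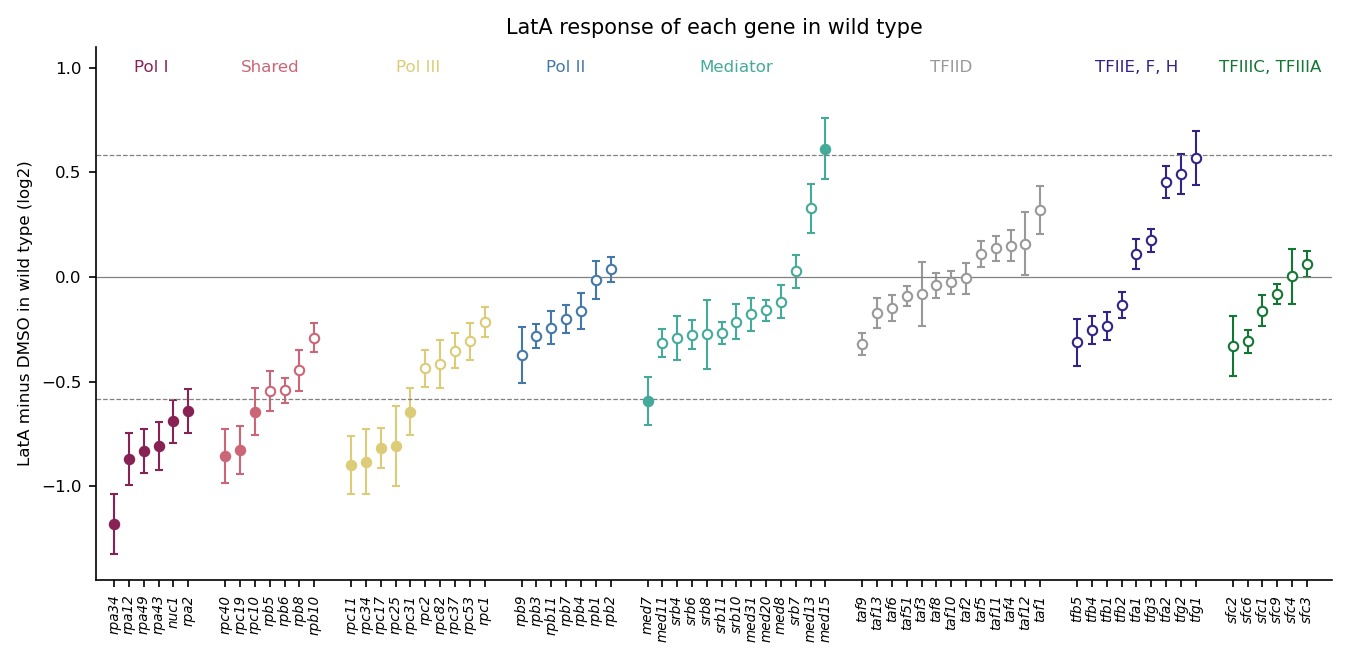
Log2 difference between LatA and DMSO in wild type for each gene, by class, with the standard error from limma (3 arrays per group); *atg11* is not drawn. Filled points passed the adjusted p and the fold limit of 1.5, which the dashed lines mark; all 6 polymerase I genes are filled and no polymerase II or TFIID gene is.

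Polymerase I was the class with the lowest median, -0.82, and its members ranged from -1.18 to -0.64. The gene for its largest subunit, *nuc1*, had values of 0.21, 0.43 and 0.55 in wild type with DMSO and -0.19, -0.32 and -0.37 with LatA. The groups did not overlap, and *nuc1* fell by 0.69 on the log2 scale (standard error 0.10, adjusted p = 0.00548, limma). The second-largest subunit gene, *rpa2*, had values of 0.14, 0.36 and 0.53 with DMSO and -0.23, -0.29 and -0.37 with LatA. Its fall of 0.64 was the smallest of the class, a 1.56-fold difference just past the limit, and it was not called without wild-type DMSO replicate 3, where the log2 difference was -0.55.

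The largest fall of all 72 was that of *rpa34*, whose product pairs with that of *rpa49* in a module that resembles the polymerase II factor TFIIF. The *rpa34* values were 0.54, 0.84 and 1.03 with DMSO and -0.26, -0.32 and -0.55 with LatA, a 2.27-fold difference (-1.18 in log2 units, standard error 0.14, adjusted p = 0.00486, limma). Those of its partner *rpa49* were 0.44, 0.47 and 0.67 with DMSO and -0.21, -0.22 and -0.49 with LatA, a fall of 0.83. Both partners were thus high on every DMSO array and low on every LatA array. The transcript of *rpa12*, whose product takes part in RNA cleavage and termination, fell by 0.87, from 0.47, 0.76 and 0.95 to -0.09, -0.14 and -0.19. That of *rpa43*, the stalk subunit to which the initiation factor Rrn3p binds, fell by 0.81, from 0.47, 0.61 and 0.82 to -0.34, -0.07 and -0.12. In all 6 genes DMSO replicate 1 was the lowest and DMSO replicate 3 the highest of the DMSO arrays.

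The shared subunits had the same sign with smaller sizes, at a median of -0.55, and all 7 had an adjusted p below 0.05. The 3 past the fold limit included *rpc40* and *rpc19*, whose products form the assembly pair common to polymerases I and III. The *rpc40* values were 0.45, 0.83 and 0.95 with DMSO and -0.13, -0.08 and -0.14 with LatA, a fall of 0.86 (standard error 0.13, adjusted p = 0.00573, limma). Those of *rpc19* were 0.45, 0.73 and 0.86 with DMSO and -0.21, -0.03 and -0.20 with LatA, a fall of 0.83. Neither gene's groups overlapped. The third was *rpc10*, a zinc-binding subunit of all 3 enzymes, which fell by 0.64 and was not called without wild-type DMSO replicate 3 or LatA replicate 3 (log2 differences of -0.55 and -0.57). The other subunits of all 3 enzymes, *rpb5*, *rpb6*, *rpb8* and *rpb10*, had log2 differences of -0.55, -0.54, -0.45 and -0.29, inside the fold limit.

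In polymerase III the median was -0.54, and 9 of the 10 genes had an adjusted p below 0.05. The largest difference was that of *rpc11*, which serves RNA cleavage and termination in this enzyme as *rpa12* does in polymerase I. The *rpc11* values were 0.62, 0.65 and 0.97 with DMSO and -0.34, 0.08 and -0.19 with LatA, a fall of 0.90 (standard error 0.14, adjusted p = 0.00585, limma). The groups did not overlap, although LatA replicate 2 was above the median of the 12 arrays. The stalk genes *rpc17* and *rpc25* fell by 0.82 and 0.81. The values of *rpc25* were the more scattered: 0.24, 0.60 and 0.77 with DMSO and -0.61, -0.10 and -0.10 with LatA (standard error 0.19), and its call was lost without wild-type DMSO replicate 2 (adjusted p = 0.0604) or with its own variance (adjusted p = 0.064). Of the initiation trimer, *rpc34* fell by 0.88 and *rpc31* by 0.64, the latter not called without wild-type DMSO replicate 3 (log2 difference -0.54) or with array weights, and *rpc82* had a log2 difference of -0.42. The 2 large catalytic subunits were inside the fold limit: *rpc2* at -0.44 and *rpc1* at -0.21. The *rpc1* values were 0.01, 0.09 and 0.23 with DMSO and -0.04, -0.15 and -0.12 with LatA, so that even here the groups did not overlap, with an adjusted p of 0.0564 (limma). The TFIIF-like pair of this enzyme, *rpc37* and *rpc53*, stood at -0.35 and -0.31, inside the fold limit, where its polymerase I counterparts were past it.

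The genes particular to polymerase II had a median of -0.20, and none of the 7 passed the fold limit. At an unadjusted p below 0.05 there were 4 of 7, beside 53.5% of all probe sets. After adjustment there were 2 (*rpb3*, -0.28, and *rpb11*, -0.24, the assembly pair of this enzyme). The largest fold change of the class was 1.30. A fit with each probe set's own variance leaves fold changes as they are, so no gene of this class could pass both limits there. The gene for the largest subunit, *rpb1*, had values of -0.08, -0.04 and -0.08 with DMSO and 0.10, -0.12 and -0.22 with LatA. These overlapped, and differed by -0.01 in log2 units (standard error 0.09, adjusted p = 0.906, limma). The second-largest, *rpb2*, was at 0.04, the only positive value of the class, and the lowest was *rpb9* at -0.37 (adjusted p = 0.0645). The stalk genes *rpb4* and *rpb7* were at -0.16 and -0.20, beside -0.82 and -0.81 for the stalk genes of polymerase III.

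Mediator genes had a median of -0.21, and 1 of 13 was called in each direction, beside 7.21% of all probe sets higher and 7.3% lower. The gene *med15*, whose product belongs in budding yeast to the tail that binds activators, was the only one of the 72 called higher. Its values were -0.28, -0.64 and -0.88 with DMSO and 0.03, -0.002 and 0.02 with LatA, a 1.53-fold rise (log2 difference 0.61, standard error 0.15, adjusted p = 0.0183, limma). The LatA arrays lay close together and the DMSO arrays far apart. The call was lost in 5 of the 6 fits that left out an array, all but that without DMSO replicate 1, and in those 5 the log2 difference was between 0.48 and 0.62. It was also lost with its own variance (adjusted p = 0.0625). The middle-module gene *med7* fell by 0.59, from 0.28, 0.51 and 0.40 to 0.02, -0.24 and -0.37, just past the fold limit. It was not called without DMSO replicate 2, LatA replicate 2 or LatA replicate 3 (log2 differences of -0.54, -0.57 and -0.51), nor with arrays centred on their own medians (-0.56). The head-module genes *srb4*, *srb6*, *med8*, *med11* and *med20* had log2 differences from -0.32 (*med11*) to -0.12 (*med8*). In the kinase module *med13* was at 0.33, while *srb8*, *srb10* and *srb11* were at -0.27, -0.21 and -0.27.

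Genes of TFIID, which recognizes core promoters together with the TATA-binding protein, had a median of -0.03, and none of the 13 passed. At an unadjusted p below 0.05 there were 2 of 13, beside the 53.5% of all probe sets given above. The largest fold change of the class was 1.25. A fit with each probe set's own variance does not alter it, so the TFIID genes could not pass both limits there. They ranged from *taf9* at -0.32 (adjusted p = 0.00613, limma), which was 0.27, 0.29 and 0.30 with DMSO and -0.0033, -0.01 and -0.09 with LatA, to *taf1* at 0.32 (adjusted p = 0.0652). Among the 9 genes of TFIIE, TFIIF and TFIIH the median was 0.11, the highest of the classes, with 0.0603 without DMSO replicate 2 and 0.168 without DMSO replicate 1. The TFIIF genes *tfg1* and *tfg2* were at 0.57 and 0.49 and the TFIIE gene *tfa2* at 0.45. All 3 had adjusted p-values between 0.0069 and 0.0162 (limma) and groups that did not overlap, and were inside the fold limit. The values of *tfg1* were -0.25, -0.69 and -0.64 with DMSO and 0.16, -0.0018 and -0.03 with LatA. It was called with array weights, when arrays were centred on their medians, and without DMSO replicate 1, LatA replicate 2 or LatA replicate 3; *tfg2* was called without DMSO replicate 1. The TFIIH genes *tfb1*, *tfb2*, *tfb4* and *tfb5* were at -0.23, -0.13, -0.25 and -0.31. The TFIIIC genes and *sfc2*, which encodes TFIIIA, the 5S gene factor, had a median of -0.12, from *sfc2* at -0.33 to *sfc3* at 0.06, and none of the 6 was called.

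**Figure D2:**
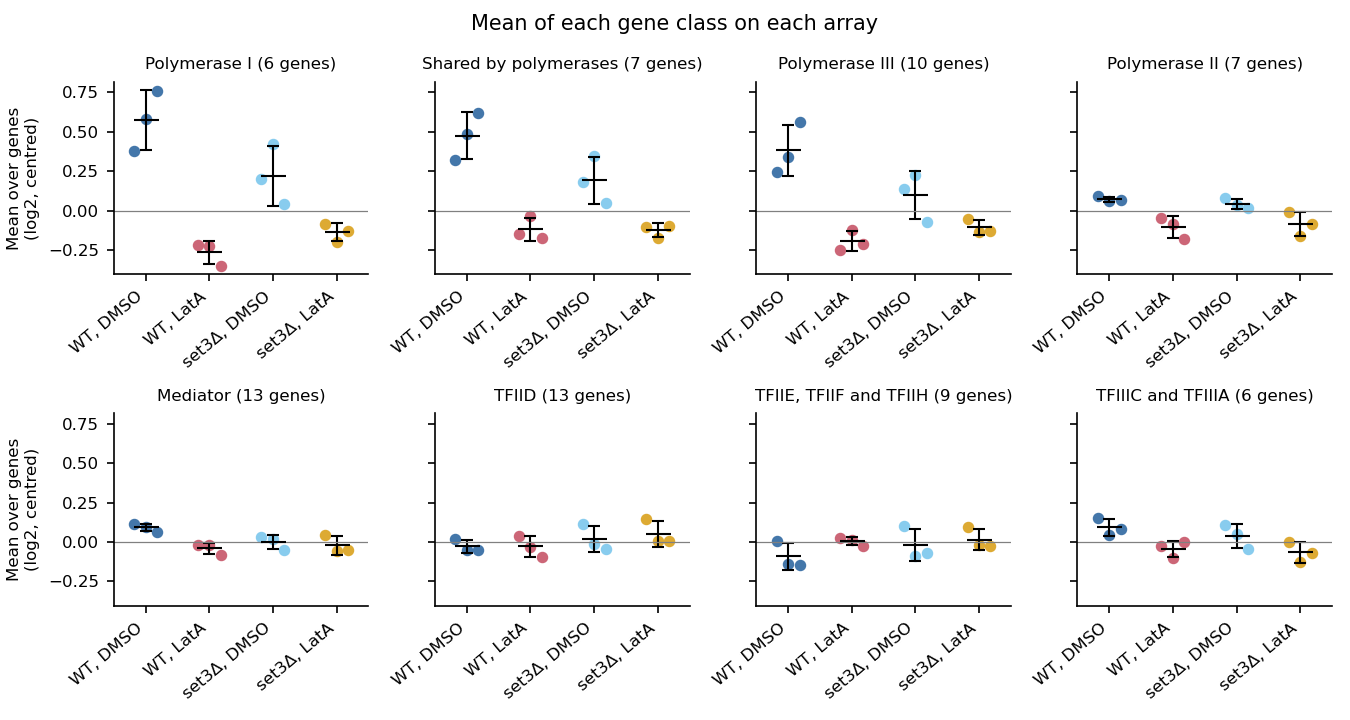
Mean over the genes of each class on each of the 12 arrays (log2 units, each gene centred on its median over the 12 arrays); points are arrays in the order of replicates 1 to 3, and black lines the mean and SD of the 3 arrays of a group. In the polymerase I, shared and polymerase III panels the wild-type DMSO arrays are the highest group on average and both LatA groups lie below 0; in the TFIID panel the 4 groups overlap.

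In *set3Δ* cells the 6 polymerase I genes had negative differences between LatA and DMSO, as had 53.7% of all probe sets. Of the 6, 1 had an adjusted p below 0.05 and none passed the fold limit. The median of the class was -0.34, and the groups did not overlap in any of the 6. The test of the difference from the wild-type response called none of these genes (adjusted p between 0.15 and 0.394, limma). The medians were -0.33 for the shared subunits, -0.14 for polymerase III, -0.13 for polymerase II, -0.07 for Mediator and 0.02 for TFIID, beside -0.02 over all probe sets. That of polymerase III was -0.0874 without *set3Δ* DMSO replicate 2 and -0.24 without DMSO replicate 3. Of the 72, 2 were called lower (1.64% of all probe sets were) and none higher (1.97%). Without the fold limit, 9 were lower, beside 6% of all probe sets, and 1 was higher, beside 6.43%. At an unadjusted p below 0.05 there were 34 of 72, beside 37% of all probe sets. In 28 of the 72 every LatA array lay below every DMSO array, beside 25.2% of all probe sets.

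The 2 called were *rpc11* and *tfb5*. The *rpc11* values were 0.29, 0.46 and -0.08 with DMSO and -0.31, -0.51 and -0.41 with LatA, a fall of 0.64 (standard error 0.14, adjusted p = 0.0449, limma). Those of *tfb5*, the smallest core subunit of TFIIH, were 0.36, 0.16 and -0.06 with DMSO and -0.42, -0.80 and -0.51 with LatA, a fall of 0.73 (standard error 0.14, adjusted p = 0.0351, limma). In both genes the LatA arrays were below every DMSO array, of which replicate 3 was the lowest. Without *set3Δ* DMSO replicate 3 both were called, and with them *rpa34*, *rpa43*, *rpc25*, *sfc2* and *med15*, 7 in all, among 218 of all probe sets (176 with every array). Neither call held when any of the other 5 arrays was left out, and the count over all probe sets moved as well. It was 18 without DMSO replicate 1, 120 without DMSO replicate 2, the array that stood apart in the stress score, 107 without LatA replicate 3 and 0 without LatA replicate 1 or 2. Both calls were also lost with each probe set's own variance, which called 5 of all probe sets, and with the replicate number as a block, which called 0.

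Among the polymerase I genes, the values of *nuc1* were 0.10, 0.31 and 0.05 with DMSO and -0.05, -0.13 and -0.06 with LatA, a log2 difference of -0.24 (adjusted p = 0.0882, limma). Those of *rpa34* were 0.41, 0.53 and 0.04 with DMSO and -0.04, -0.36 and -0.16 with LatA, a difference of -0.52 (adjusted p = 0.0695). The one polymerase I gene with an adjusted p below 0.05 was *rpa43*, at -0.56. The other genes below 0.05 but inside the fold limit were *rpb5*, *rpb6*, *rpb7*, *rpc10*, *rpc25* and the Mediator kinase-module genes *srb8* (-0.43) and *med13* (0.43), which had opposite signs. The largest subunits of the other enzymes were near 0: *rpb1* was at -0.07 and *rpc1* at 0.02. In TFIID the values ran from *taf9* (-0.15) to *taf11* (0.29), and in the group of *sfc* genes from *sfc2* (-0.46) to *sfc3* (0.25). The highest Mediator value was that of *med15*, at 0.49 (adjusted p = 0.0571), from -0.37, -0.48 and 0.002 with DMSO to 0.18, 0.23 and 0.21 with LatA.

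**Figure D3:**
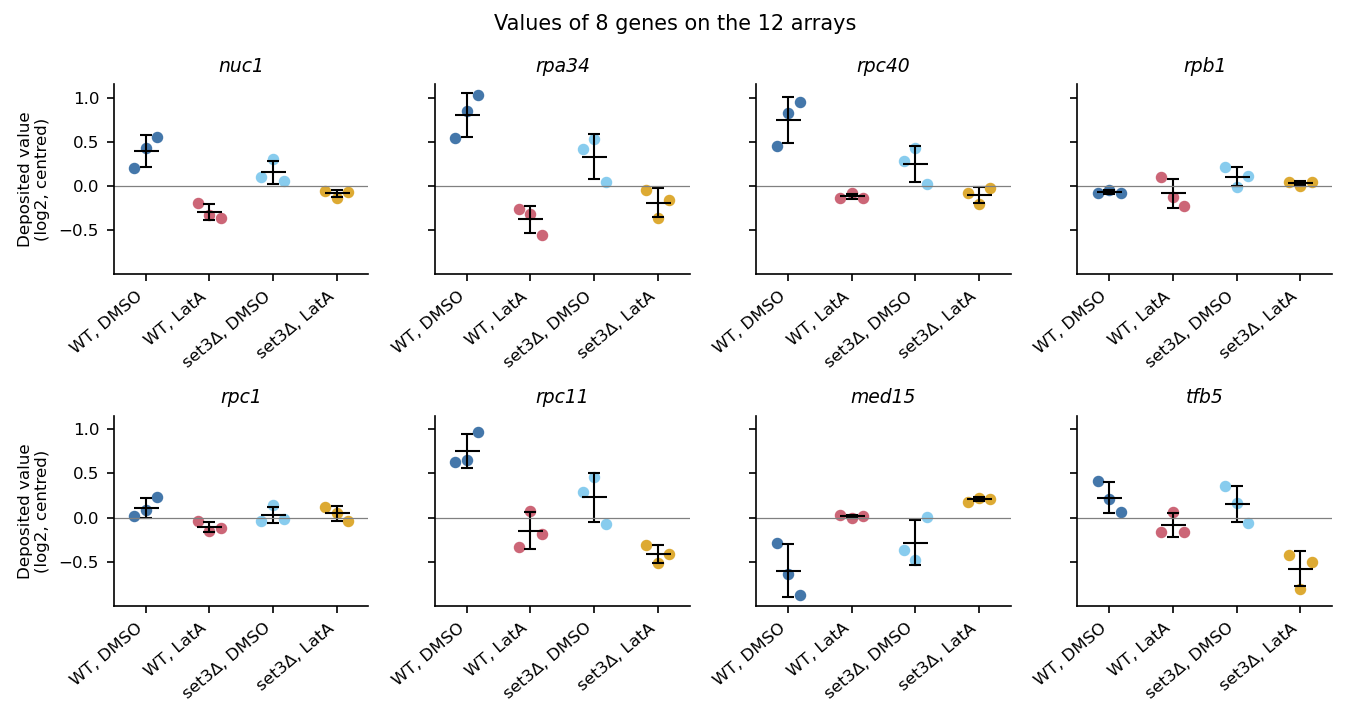
Deposited values of 8 genes on the 12 arrays (log2 units, centred on each gene's median); points are replicates 1 to 3 of a group and black lines the mean and SD. The polymerase I genes *nuc1* and *rpa34* are highest in wild type with DMSO, *rpb1* overlaps between LatA and DMSO in both strains, and *tfb5* is lowest in *set3Δ* with LatA.

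The strains themselves were compared under each treatment, and both comparisons share arrays with those above. With DMSO, none of the 72 passed (6 of all 4880 probe sets did, 0.123%). At an unadjusted p below 0.05 in limma there were 23 of 72, beside 22.8% of all probe sets, and the lowest adjusted p was 0.149. The largest fold change of the 72 was 1.43. A fit with each probe set's own variance leaves it as it is, so none could be called there. All 6 polymerase I, all 7 shared and all 10 polymerase III genes had negative differences in *set3Δ* relative to wild type, as had 52.7% of all probe sets. The medians of these classes were -0.33, -0.28 and -0.27, beside -0.01 over all probe sets. The lowest of each were *rpa12* (-0.49), *rpc40* (-0.49) and *rpc11* (-0.52). The *rpa12* values were 0.47, 0.76 and 0.95 in wild type and 0.17, 0.51 and 0.04 in *set3Δ*, and these overlapped, since *set3Δ* replicate 2 lay above wild-type replicate 1. The polymerase II genes had a median of -0.04, from *rpb9* at -0.24 to *rpb1* at 0.17, and Mediator a median of -0.19, from *med11* at -0.34 to *med15* at 0.32. In the other classes the extremes were *taf13* (-0.19) and *taf1* (0.31), *tfb4* (-0.16) and *tfg1* (0.40), and *sfc6* (-0.27) and *sfc4* (0.30). Array means of the polymerase I genes were 0.38, 0.58 and 0.76 in wild type with DMSO and 0.20, 0.42 and 0.04 in *set3Δ* with DMSO. In wild type the array with the least negative stress score, replicate 1, had the lowest of these means, and in *set3Δ* the array with the most negative score, replicate 2, had the highest. Between *set3Δ* DMSO replicates 1 and 3 the order was the other way. Their scores were 0.01 and -0.04 and their means 0.20 and 0.04. The score includes *rpa49*, and any relation between score and means was not tested.

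With LatA the strains lay close. None of the 72 passed the fold limit (154 of all probe sets did, 3.16%). The largest fold change of the 72 was 1.41. A fit with each probe set's own variance leaves it as it is, so none could pass there. At an unadjusted p below 0.05 in limma there were 21 of 72, a smaller share than the 35.4% of all probe sets, and at an adjusted p below 0.05 there were 9, 7 higher and 2 lower in *set3Δ*, beside 18.2% of all probe sets in either direction. The largest of these differences was that of *tfb5*, which was -0.16, 0.07 and -0.16 in wild type and -0.42, -0.80 and -0.51 in *set3Δ*, a difference of -0.49 in log2 units (standard error 0.12, adjusted p = 0.035, limma). The groups did not overlap, and *tfb5* was called past the fold limit with array weights, among 190 of all probe sets. Higher values were those of *rpc2* (0.34), *taf11* (0.32), *atg11* (0.28), *rpa2* (0.25), *med31* (0.24), *sfc4* (0.20) and *med15* (0.19), and the second lower one was *srb11* (-0.19). The most negative values of polymerase III, TFIIIA and the shared subunits, *rpc11* (-0.26), *sfc2* (-0.39) and *rpb8* (-0.23), had adjusted p-values above 0.05, as had *srb7* (-0.26) in Mediator. The medians were 0.18 for polymerase I, 0.09 for polymerase III and 0.01 for the shared subunits, beside 0.02 over all probe sets.

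The 2 LatA responses were compared in a fit of all 12 arrays, with the wild-type response subtracted from that of *set3Δ*. None of the 72 passed (3 of all probe sets did, 0.0615%). At an unadjusted p below 0.05 in limma there were 19 of 72, beside 20.2% of all probe sets, and the lowest adjusted p was 0.122. With each probe set's own variance none was called, but that fit called 0 of all probe sets. The differences were positive for 6 of 6 polymerase I, 7 of 7 shared and 10 of 10 polymerase III genes, while 44.1% of all probe sets had negative ones. The medians of these classes were 0.49, 0.22 and 0.36, beside 0.03 over all probe sets. The *set3Δ* response was the less negative one in these genes, except that it was slightly above 0, at most 0.0539, for *rpc1*, *rpc2*, *rpc37* and *rpc82*. In polymerase II 4 of 7 were positive (median 0.02), in Mediator 10 of 13 (0.10) and in TFIID 7 of 13 (0.05). The largest was that of *rpa34*, 0.66 (standard error 0.22, adjusted p = 0.162, limma), followed by *rpc17*, 0.56 (0.17, adjusted p = 0.15). In Mediator *med31* was highest, at 0.47 (adjusted p = 0.122): its response was -0.18 in wild type and 0.29 in *set3Δ*. The most negative was *tfb5*, at -0.42 (adjusted p = 0.261). The extremes of the other classes lay between these: *rpb4* (-0.08) and *rpb9* (0.29), *srb8* (-0.16) in Mediator, *taf1* (-0.20) and *taf6* (0.23), *tfb4* (0.31), and *sfc2* (-0.13) and *sfc3* (0.18). Without wild-type DMSO replicate 1, *rpa2*, *rpa12*, *rpa34*, *rpc19* and *rpc40* were called, among 260 of all probe sets, and with array weights *rpa12* and *rpa34* were, among 324 (3 in the fit without weights). Wild-type DMSO replicate 1 had the least negative stress score and the lowest polymerase I mean of its group, and whether this bears on these calls was not tested.

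**Figure D4:**
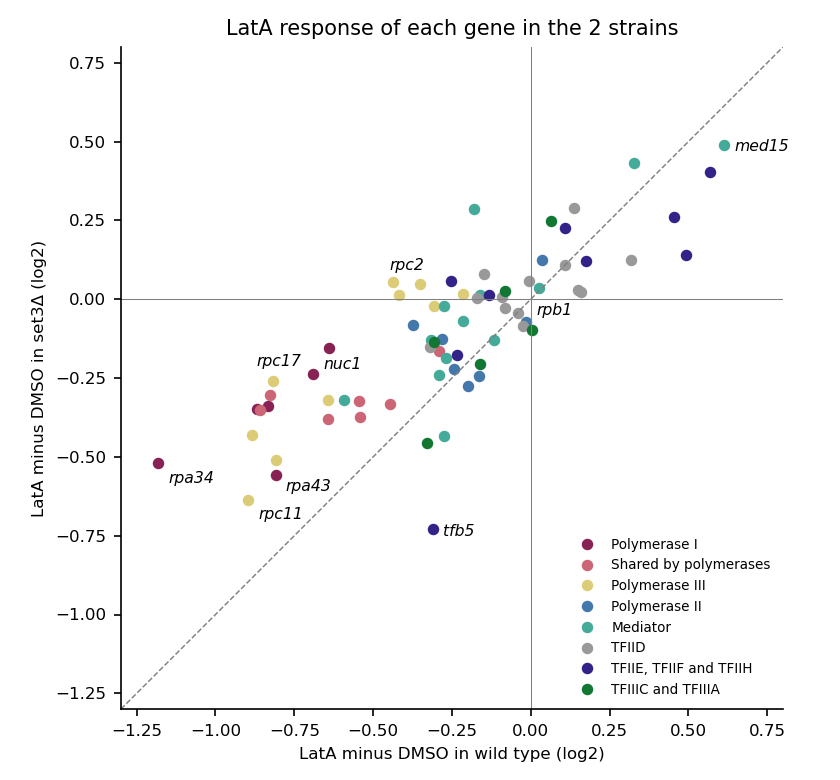
Log2 difference between LatA and DMSO in wild type (horizontal) and in *set3Δ* (vertical) for each gene, coloured by class; the dashed line marks equal responses, and the 2 axes use different arrays. All polymerase I, shared and polymerase III points lie above the line, and *tfb5* lies farthest below it.

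Further genes of the same machinery that the name rule missed were listed by their known roles: the TATA-binding protein, TFIIIB, the polymerase I initiation factors, *ker1*, Mediator and TFIIH subunits under other names, kinases and phosphatases of the polymerase II tail, elongation factors, SAGA and the polymerase III repressor *maf1*. Of the 56 measured, 1 was called higher and 2 lower with LatA in wild type, beside 7.21% and 7.3% of all probe sets. In *set3Δ* 1 was called higher and none lower, beside 1.97% and 1.64% of all probe sets. The lists held *mbx2*, a MADS-box factor matched through an old symbol, which was not called, and placed *reb1*, which in fission yeast serves polymerase I termination, with the initiation factors. The gene *ker1*, which encodes the partner of the *rpa43* product in the polymerase I stalk, was 0.45, 0.57 and 0.90 with DMSO and -0.23, -0.01 and -0.50 with LatA in wild type. Its fall of 0.89 (standard error 0.16, adjusted p = 0.0085, limma) lay within the range of the 6 polymerase I genes above, and in *set3Δ* its difference was -0.48 (adjusted p = 0.0629). The 6 measured polymerase I initiation factors other than *reb1* all had negative values in wild type, as had 55.1% of all probe sets. Their median was -0.22 and none was called, and *reb1* was at -0.13. The lowest were *rrn10* at -0.56 (adjusted p = 0.00723, limma) and *rrn3* at -0.51 (adjusted p = 0.0121), both inside the fold limit.

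The gene called higher was *mcs6*, the kinase of TFIIH (Cdk7), and it was called in both strains. Its values were -0.41, -0.54 and -0.88 with DMSO and 0.25, 0.30 and 0.57 with LatA in wild type, and -0.36, -0.48 and -0.20 with DMSO and 0.37, 0.39 and 0.20 with LatA in *set3Δ*. Every LatA array lay above every DMSO array of its strain, with rises of 0.98 (adjusted p = 0.00546, limma) and 0.67 (adjusted p = 0.0216, limma). The *set3Δ* call was lost with the replicate number as a block and without *set3Δ* LatA replicate 1 or 2. Those fits called 0 of all probe sets. Of the 6 TFIIH genes in this list 3 were positive in wild type, *mcs6* and the core helicase genes *rad15* at 0.33 (adjusted p = 0.0167, limma) and *ptr8* at 0.14, and the others, *mcs2*, *pmh1* and *ssl1*, were between -0.08 and -0.03. The second gene called lower in wild type was *lsg1*, the third subunit of the polymerase II tail kinase complex with *lsk1* and *lsc1*, which fell by 0.62 (adjusted p = 0.00684, limma) and was at -0.13 in *set3Δ*. Between the strains with DMSO its log2 difference was -0.64 (adjusted p = 0.148). Of the Mediator genes under other names, all 8 that encode Mediator were negative in wild type (median -0.38), beside 55.1% of all probe sets, and none was called. The repressor gene *maf1* was at 0.48 in wild type (adjusted p = 0.0199, limma) and 0.19 in *set3Δ* (adjusted p = 0.395), inside the fold limit in both. The gene *tbp1*, for the TATA-binding protein, was at 0.53 in wild type (adjusted p = 0.0206, limma) and 0.42 in *set3Δ* (adjusted p = 0.138), also inside the limit.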

How the data were processed

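Total RNA was hybridized to Affymetrix yeast genome arrays, which carry probe sets for both yeasts; those of *S. pombe* were used. The deposited values are log2 intensities after RMA by the authors, centred on each probe set's median over the 12 arrays (checked: within 7.02e-07 of 0). RMA gives the arrays one distribution, so a change in total RNA per cell would not show. Centred values hold no level, so no dim probe set was left out, and the number of arrays limits the precision.

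Members were matched by symbol in the platform's annotation (2865 probe sets with 1 symbol, 19 with several, 1996 with none) and updated by gene identifier from RefSeq. Groups were compared with limma 3.58.1 (R 4.3.3, statmod 1.5.0), 2 groups at a time, and the difference between LatA responses on all 12 arrays. Thresholds were those of the study's methods. The genes, lists and tests were chosen with earlier results of these data known, and class medians carry no test. Named genes are those called in any comparison, the largest subunits, the extremes of each class and called genes of the further lists; others were named after their values were seen. The procedure was tested on simulated data. Promoter sequences were not analysed here. Plots were made in matplotlib 3.10.9 (Python 3.11.15).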

Additional observations from a re-analysis of the deposited data

How the results depend on the processing

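No result for which a call had been made changed its direction. With no fold limit the genes called in wild type rose from 16 to 38, in *set3Δ* from 2 to 10 and between the strains with LatA from 0 to 9. Over all probe sets these fits called 2099, 607 and 889. A limit of 2-fold left 1 of the genes (*rpa34*) in wild type and 0 in *set3Δ*, beside 201 and 54 of all probe sets. Nothing in the labels says that a replicate number marks a shared batch, and the data do not settle it: correlations of same-numbered deviations ran from -0.50 to 0.56, and in no comparison did more than 3 of 6 arrays correlate best with their own number. With the replicate block 16 genes were called in wild type, among 704 of all probe sets, and 0 in *set3Δ*, among 0. With each probe set's own variance 14 were called in wild type, without *med15* and *rpc25*, among 551, and 0 in *set3Δ*, among 5. Limma's array weights, whose default algorithm did not converge in 3 fits, gave 2 genes between the strains with DMSO (*rpc34*, *rpc40*), 1 with LatA and 2 for the difference between the responses. Over all probe sets these weights called 134, 190 and 324, beside 6, 154 and 3 without weights. The gene-by-gene algorithm, added after seeing the data, gave 0, 1 and 2 genes among 14, 179 and 278. With default weights the polymerase II medians were -0.12 in wild type, 0.0168 between the strains with DMSO and -0.0455 for the difference between the responses (gene by gene -0.15, 0.00162 and -0.0561). The wild-type Mediator median was -0.17, that of TFIIE, TFIIF and TFIIH 0.18 (gene by gene 0.17), and the polymerase I median between the strains with LatA 0.0936.

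Leaving out each array in turn gave between 12 and 19 genes called in wild type, between 0 and 7 in *set3Δ*, 0 between the strains under either treatment, and between 0 and 5 for the difference between the responses. The counts over all probe sets moved as well, from 558 to 990 in wild type (708 with every array), from 0 to 218 in *set3Δ* (176) and from 0 to 260 for the difference between the responses (3). Between the strains they ran from 3 to 6 with DMSO (6 with every array) and from 93 to 174 with LatA (154). The polymerase I median stayed between -0.89 and -0.74 in wild type, between -0.43 and -0.23 in *set3Δ* and between 0.0925 and 0.24 between the strains with LatA. The polymerase II median ranged from -0.25 to -0.17 in wild type, -0.0806 to 0.019 between the strains with DMSO, -0.0447 to 0.0996 with LatA, and -0.0354 to 0.0706 for the difference between the responses. The Mediator median ranged from -0.24 to -0.16 in wild type and -0.17 to -0.00121 in *set3Δ*. Between the strains it ranged from -0.21 to -0.13 with DMSO and from -0.0362 to 0.0578 with LatA, and for the difference between the responses from 0.0566 to 0.16. The TFIID median of the difference between the responses ranged from -0.0172 to 0.0948. The cause of these shifts was not tested. Leaving out *atg11*, also added after seeing the data, changed no count of genes past both limits. It is 1 of the 9 genes with an adjusted p below 0.05 between the strains with LatA. Some counts by unadjusted p or by groups not overlapping also include it.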
